A study of Mus musculus with 7 samples.

Results

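The mouse mitochondrial genome carries 37 genes, and all 37 were followed here in RNA sequencing of interscapular brown adipose tissue from wild-type mice (WT) and mice without PGAM5 (KO). The members are all genes of the mitochondrial chromosome, with no selection among them by measured values. Earlier results of these data were known when this set was chosen. The members comprise 13 mRNAs, 2 rRNAs and 22 tRNAs, out of 53715 genes in the count table. The tissue is a fat depot of the upper back that burns fuel to make heat. Every mouse was a C57BL/6J male aged 10 weeks, so the groups differed in their labels only by genotype. WT was labelled wild-type, and KO lacked PGAM5, a phosphatase that resides in mitochondria. Neither the allele nor the cells carrying the deletion are described in the labels. The study lists 3 WT and 4 KO individuals. The table used here has columns for 3 WT and 3 KO mice, and KO 4 was not analysed here. The library kit, which marks strand, starts from oligo(dT)-purified RNA.

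Mitochondrial DNA encodes core subunits of respiratory complexes I, III, IV and V, while all other subunits come from nuclear genes. Each strand is transcribed into long precursor RNAs, from which enzymes cut out tRNAs, rRNAs and mRNAs, often at the tRNAs that lie between other genes. Most of the mature mRNAs then receive short poly(A) tails, whereas mature tRNAs end in CCA, so an oligo(dT) library reads the classes with unequal efficiency. In brown fat, the respiratory chain builds the proton gradient that Ucp1, the uncoupling protein of the inner membrane, releases as heat.

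The 6 libraries held between 18034204 and 33617762 counts, and 3 counts, the limit that a count of 0 allows, corresponded to between 0.0883 and 0.200 CPM (counts per 1000000 counts of the library, scaled with TMM factors). This limit covers counting error only. Counts of Pgam5, the targeted gene, were 167, 122 and 186 in WT against 1, 3 and 11 in KO (log2 fold change -4.84, SE 0.59, edgeR adjusted p = 0.0243), which fits the labels of all 6 libraries. All 11 brown adipocyte markers were detected, with summed levels of 13842 to 17228 CPM in WT against 15814 to 18120 CPM in KO. The mitochondrial share of counts was extreme in WT 2 and KO 3, as described next. Values without 1 or both of these libraries stand beside many of the results below. In bulk tissue, fewer cells of a type and less RNA per cell cannot be told apart.

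The mitochondrial share of counts was lower in mean in KO, but the groups overlapped. The 37 genes together took 32.5%, 43.0% and 30.3% of all counts in WT 1, WT 2 and WT 3. They took 34.1%, 28.2% and 19.7% in KO 1, KO 2 and KO 3. WT 2 was the highest and KO 3 the lowest, while the other 4 libraries lay between them with KO 1 above WT 1 and WT 3. The means were 35.2% ± 6.77 in WT against 27.3% ± 7.24 in KO (SD, n = 3 each), a difference of -7.93 percentage points (exact two-sided permutation p = 0.3, 0.75 after adjustment over 5 share tests). Such an exact test of 3 against 3 cannot go below p = 0.1. The difference was -4.08 percentage points without WT 2, -4.12 without KO 3 and -0.26 without both. These 2 libraries were picked for their extreme shares, so a smaller difference follows from that choice.

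Of the 37 genes, 31 passed the count filter and were tested in the fit over all 15123 genes. Of these 31, 30 had a negative log2 fold change (KO minus WT) and 1, mt-Tp, a positive one, where 50.2% of all tested genes were negative. The median over the 31 genes was -1.05, beside -0.0019 over all genes. It was -0.69 without WT 2, -0.74 without KO 3 and -0.31 without both, with 30, 28 and 28 of the 31 genes negative. No mitochondrial gene passed edgeR's adjusted threshold of 0.05 (adjusted p from 0.306 to 0.805), where 0.0397% of all genes were called lower and 0.0198% higher. At an unadjusted p under 0.05, edgeR gave 13 of the 31 lower and 0 higher, against 5.49% and 6.3% of all genes. That count of 13 fell to 7 without WT 2, 8 without KO 3 and 7 without both. Leaving out any other single library gave 14 or 15 lower and at most 1 higher. Over all genes and both directions, 1782 of 15123 passed this level with all libraries. There were 1299 of 15669 without WT 2, 1016 of 15553 without KO 3 and 1319 of 15545 without both. DESeq2 called 3 of the 31, mt-Rnr2, mt-Co2 and mt-Tn, all lower, where it called 0.551% of all genes lower. In 10 of the 31 genes every KO library lay below every WT library, against 9.39% of all genes. In 0 of the 31 did every KO library lie above every WT library, against 10.1% of all genes. These genes come from a few long precursor RNAs and share each library's conditions, so they are not independent of each other. Among the 31 genes WT 2 was the highest library in 21 and KO 3 the lowest in 27.

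**Figure D1:**
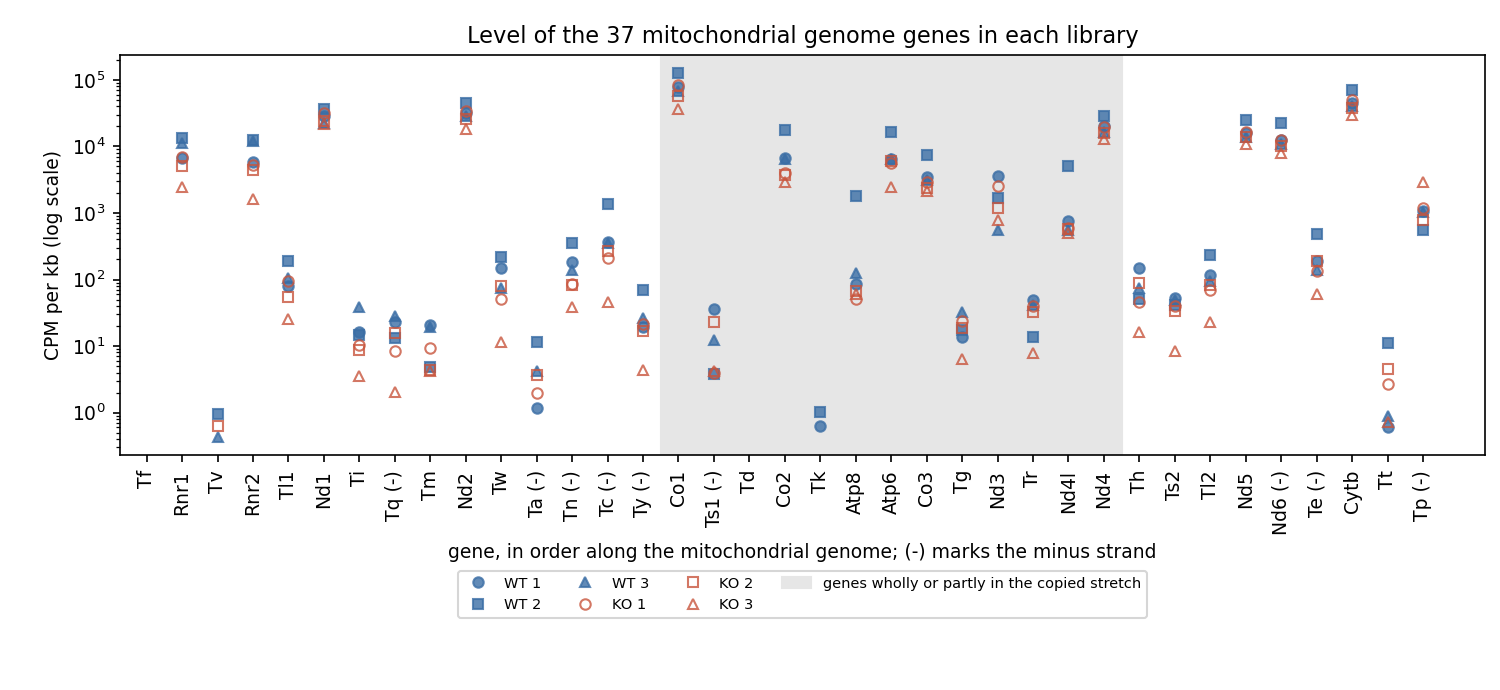
Level of each of the 37 genes in CPM per kb of gene length (log axis) in the 6 libraries, in order along the mitochondrial genome; filled blue marks are WT, open red marks are KO, and a value of 0 is not drawn. The grey band covers the genes wholly or partly inside a stretch with a near-identical copy on chromosome 1, where Atp8, Nd3 and Nd4l sit lowest among the mRNAs.

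The 13 mRNAs spanned a wide range of levels. Per length, mt-Co1 was the highest of all 37 genes at 74911 CPM per kb (mean of the 6 libraries), followed by mt-Cytb at 45646 and mt-Nd2 at 30773 CPM per kb. The lowest mRNA was mt-Atp8 at 365 CPM per kb. Levels also differed by place. The 5 mRNAs outside the stretch of the mitochondrial chromosome that is duplicated in the nucleus (mt-Nd1, mt-Nd2, mt-Nd5, mt-Nd6 and mt-Cytb) lay between 12726 and 45646 CPM per kb. The 6 mRNAs wholly inside it (mt-Co2, mt-Atp8, mt-Atp6, mt-Co3, mt-Nd3 and mt-Nd4l) lay between 365 and 7216 CPM per kb. mt-Co1 and mt-Nd4, which are partly inside, stood at 74911 and 19105 CPM per kb.

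This stretch runs from position 6390 to 11042 of the mitochondrial chromosome (chrM:6390-11042, mm10, 4653 bases). Its copy comprises 7 unprocessed pseudogenes on the minus strand of chromosome 1 (chr1:24611535-24616197, 4663 bases), in the same order and with nearly the same spacing as the genes. Of the gene pairs, 5 were identical over the aligned bases. The other two differed at 1 base each, T3C between mt-Nd3 and Gm28438 and A1066T between mt-Co1 and Gm29216, with positions counted from 1 at the 5′ end of the mitochondrial gene. The start of mt-Nd3 and the part of mt-Co1 around its difference are shown. Each holds the only base that differs within the aligned part of its pair, and the capital marks that base.
mt-Nd3: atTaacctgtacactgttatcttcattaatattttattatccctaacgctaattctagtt
Gm28438: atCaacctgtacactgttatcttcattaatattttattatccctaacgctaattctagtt
mt-Co1: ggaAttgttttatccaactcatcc
Gm29216: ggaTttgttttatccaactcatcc
In mm10 these lie at chrM:9459-9518 (plus strand), chr1:24613060-24613119 (minus strand), chrM:6390-6413 (plus strand) and chr1:24616165-24616188 (minus strand). A read from a matching stretch that does not cover such a base fits both places equally well.

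The count table gave reads to the genes and to their copies. The 7 pseudogenes together took 1.09%, 2.07% and 1.15% of all counts in WT against 1.23%, 0.976% and 0.496% in KO. For mt-Nd3, a subunit of complex I, the count table gave 30613, 8768 and 6527 counts in WT against 19389, 9558 and 5602 in KO. Its copy Gm28438 received 2513, 6152 and 28110 counts in WT against 11174, 12509 and 12622 in KO. The copy thus held 7.59% of the pair's counts in WT 1 but 81.2% in WT 3, with the other 4 libraries in between. The level of mt-Nd3 alone was 1237, 585 and 192 CPM in WT against 882, 410 and 274 CPM in KO, a 6.44-fold range. Gene and copy together were at 1338, 995 and 1019 CPM in WT against 1390, 947 and 890 CPM in KO, a 1.56-fold range. The edgeR log2 fold change of mt-Nd3 was -0.36 (SE 0.60, adjusted p = 0.805) for the gene alone and -0.06 (SE 0.23, adjusted p = 0.930) for the sum. Without WT 1 the value for the gene alone turned to 0.43.

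For the other genes of the stretch, the copy's share varied less between libraries or was small. Gm28661 held 24.3% to 45.3% of the counts of its pair with mt-Co2, Gm10925 held 31.3% to 43.5% with mt-Atp6, Gm28437 held 29.7% to 61.8% with mt-Co3 and Gm10222 held 34.9% to 67.2% with mt-Nd4l. The shares were 1.40% to 2.0% for Gm29216 with mt-Co1 and 1.85% to 7.11% for Gm28439 with mt-Nd4, of which 31.3% and 63.6% of the length lies in the stretch. Adding the copies' counts before the fit left the log2 fold changes of mt-Co2 at -1.38 (SE 0.42), mt-Atp6 at -1.11 (SE 0.43), mt-Co3 at -0.81 (SE 0.35) and mt-Nd4l at -1.44 (SE 0.60), and edgeR called none of them (adjusted p from 0.349 to 0.421). A copy of mt-Atp8 was not among the annotated pseudogenes of the stretch. A second, less similar copy of mt-Co1, Gm13340 on chromosome 2 (97.6% identity), had 37758 counts in all libraries together.

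**Figure D2:**
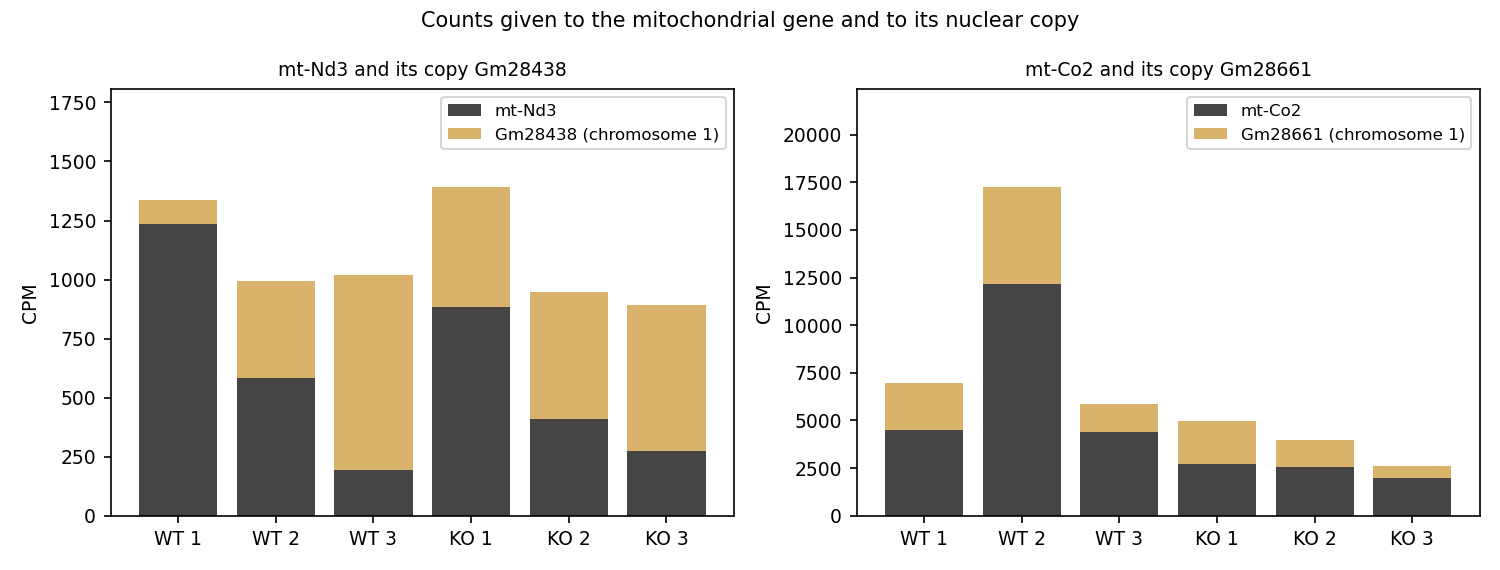
CPM of a mitochondrial gene (dark) and its chromosome 1 copy (tan), stacked for each of the 6 libraries, for mt-Nd3 and mt-Co2. The split between mt-Nd3 and Gm28438 shifts from 7.59% in the copy in WT 1 to 81.2% in WT 3 while the sum stays between 890 and 1390 CPM; for mt-Co2 the sum is highest in WT 2 and lower in each KO library than in each WT library.

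Complex IV, cytochrome c oxidase, takes its 3 catalytic core subunits from mt-Co1, mt-Co2 and mt-Co3. mt-Co2 carries the site that receives electrons from cytochrome c. It was at 4516, 12164 and 4387 CPM in WT against 2712, 2575 and 1976 CPM in KO. All 3 KO libraries lay below all 3 WT libraries, and WT 2 was far above the rest. The edgeR log2 fold change was -1.54 (SE 0.40, adjusted p = 0.310), and DESeq2 gave -1.54 with an adjusted p of 0.00203, past its threshold. Without WT 2 it was -0.88, and without both WT 2 and KO 3 it was -0.75 (edgeR). mt-Co3 stood at 2682, 5762 and 2454 CPM in WT against 2276, 1886 and 1686 CPM in KO, again with every KO library below every WT library (log2 fold change -0.90, SE 0.33, edgeR adjusted p = 0.387). mt-Co1, the subunit that reduces oxygen, was at 122725, 193429 and 105293 CPM in WT against 127222, 89870 and 55885 CPM in KO. KO 1 lay above WT 1 and WT 3, so the groups overlapped (log2 fold change -0.63, SE 0.38, edgeR adjusted p = 0.508). Without WT 2, mt-Co3 was at -0.40 and mt-Co1 at -0.33, and without both WT 2 and KO 3 they were at -0.30 and -0.07. mt-Co1 was at -0.37 without KO 3.

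Complex V, the ATP synthase, takes 2 subunits of its membrane part from neighbouring genes whose reading frames overlap. mt-Atp6 forms part of the proton path. It was at 4381, 11026 and 4478 CPM in WT against 3785, 4133 and 1682 CPM in KO, without overlap of the groups (log2 fold change -1.05, SE 0.44, edgeR adjusted p = 0.416). It was at -0.47 with WT 2 left out and at -0.16 with KO 3 left out as well. mt-Atp8, a small subunit, was at 17.7, 367 and 25.6 CPM in WT against 10.5, 13.6 and 12.5 CPM in KO. All KO libraries lay below all WT libraries, but WT 2 alone was more than an order of magnitude above the rest. Its log2 fold change was -3.48 (SE 1.0) with an edgeR adjusted p of 0.333, and became -0.83 without WT 2.

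WT 2 also stood out in the other overlapping pair, mt-Nd4l and mt-Nd4 of complex I. mt-Nd4l was at 226, 1484 and 164 CPM in WT against 175, 170 and 148 CPM in KO, so that its log2 fold change was -1.92 (SE 0.70) with an edgeR adjusted p of 0.377 and became -0.25 without WT 2. mt-Nd4 was at 28050, 39972 and 22936 CPM in WT against 26958, 22298 and 17748 CPM in KO (log2 fold change -0.44, SE 0.30, edgeR adjusted p = 0.538), and its value was -0.19 with WT 2 left out and -0.05 with KO 3 left out as well. As a ratio within a library, mt-Atp8 counts were 0.405%, 3.33% and 0.571% of mt-Atp6 counts in WT against 0.278%, 0.330% and 0.744% in KO. mt-Nd4l counts were 0.805%, 3.71% and 0.716% of mt-Nd4 counts in WT against 0.648%, 0.764% and 0.837% in KO. In both pairs the short upstream gene was low in 5 libraries and several times higher in WT 2. The shared bases, 43 and 7, are shown in capitals with the bases around them, since a read over them cannot be given to 1 gene by sequence.
mt-Atp8 into mt-Atp6: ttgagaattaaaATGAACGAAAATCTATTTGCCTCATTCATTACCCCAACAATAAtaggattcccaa
mt-Nd4l into mt-Nd4: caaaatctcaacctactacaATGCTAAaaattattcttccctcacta
They lie at chrM:7915-7981 and chrM:10147-10193 on the plus strand of mm10, and each capital run opens with the start codon of the downstream gene.

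Short nuclear mRNAs also differed between libraries. Each library was set against the mean of the others on the log2 scale. Among the 33 nuclear protein-coding genes with up to 500 bases of transcript the median deviations were 0.16, 0.43 and -0.14 in the WT libraries, against 0.31, -0.12 and -0.50 in the KO libraries (replicates 1 to 3 in order). For the 449 genes over 500 and up to 1000 bases they were -0.04, 0.42 and -0.10 in the WT libraries, against 0.18, -0.14 and -0.29 in the KO libraries. WT 2 was the highest, KO 1 the next highest and KO 3 the lowest in both classes. For mt-Atp8, WT 2 was the highest and KO 1 the lowest, at 10.5 CPM beside 12.5 CPM in KO 3. For the 2094 genes over 1000 and up to 2000 bases the medians were 0.23 in WT 2, again the highest, and -0.07 in KO 3, again the lowest. For the 10313 genes over 2000 bases the medians were -0.08 in WT 2 and 0.06 in KO 3. The mt-Atp8 and mt-Nd4l genes have 204 and 297 bases. The part of this length pattern in the values of the mitochondrial genes, short or long, was not tested.

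Complex I, NADH dehydrogenase, has 7 mitochondrial subunits, all of its membrane arm. Differences were small in the long ones. mt-Nd1 was at 27462, 35202 and 21886 CPM in WT against 29971, 23187 and 20579 CPM in KO, with KO 1 above 2 of the 3 WT libraries (log2 fold change -0.20, SE 0.28, edgeR adjusted p = 0.773). mt-Nd2 was at 33534, 47351 and 29971 CPM in WT against 35084, 26771 and 18941 CPM in KO (log2 fold change -0.46, SE 0.31, edgeR adjusted p = 0.543). mt-Nd5, a pump subunit like mt-Nd2 and mt-Nd4, was at 28814, 45391 and 25311 CPM in WT against 29678, 25418 and 19997 CPM in KO (log2 fold change -0.41, SE 0.30, edgeR adjusted p = 0.578). In each of these genes the groups overlapped, with KO 1 among the WT values. Complex III has 1 mitochondrial subunit, cytochrome b. mt-Cytb was at 52026, 79672 and 46798 CPM in WT against 58001, 42908 and 33907 CPM in KO (log2 fold change -0.40, SE 0.32, edgeR adjusted p = 0.595), with the same overlap. Leaving out 1 library at a time gave -0.36 to -0.0079 for mt-Nd1, -0.69 to -0.24 for mt-Nd2, -0.57 to -0.11 for mt-Nd5 and -0.62 to -0.14 for mt-Cytb, each nearest to 0 without WT 2. Without both WT 2 and KO 3 these genes stood at 0.11, -0.04, 0.03 and 0.03.

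The mRNAs were also read as shares of the 13 mRNAs' own counts. These shares sum to 100% in each library, so a higher share of one goes with lower shares of others whatever the levels do. mt-Nd1 took 8.79%, 7.27% and 8.12% of mitochondrial mRNA counts in WT against 9.28%, 9.47% and 11.6% in KO. mt-Cytb took 16.7%, 16.5% and 17.4% in WT against 17.9%, 17.5% and 19.2% in KO. mt-Co2 took 1.45%, 2.51% and 1.63% in WT against 0.839%, 1.05% and 1.12% in KO. For these 3 mRNAs the groups did not overlap, mt-Nd1 and mt-Cytb being higher in KO and mt-Co2 lower. The differences in log2 share were 0.33, 0.11 and -0.86, each at the smallest exact permutation p the design allows (0.1, or 0.433 adjusted over the 13 mRNAs). mt-Co1, the largest, took 39.3%, 40.0% and 39.1% in WT against 39.4%, 36.7% and 31.6% in KO, so KO 1 was level with WT and KO 3 was the lowest (exact permutation p = 0.3, adjusted 0.557). With the copies' counts added, the differences in log2 share were 0.34 for mt-Nd1, 0.13 for mt-Cytb and -0.73 for mt-Co2. Without both WT 2 and KO 3 they were 0.15, 0.06 and -0.71.

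By place on the chromosome, the median log2 fold change was -0.41 for the 5 mRNAs outside the copied stretch, -0.53 for the 2 partly inside and -1.29 for the 6 wholly inside. Without WT 2 these medians were -0.14, -0.26 and -0.46, and without both WT 2 and KO 3 they were 0.03, -0.06 and -0.24. The genes inside are also short, with 204 to 784 bases, and outside the stretch only mt-Nd6 (519 bases) is within that range. Length and place cannot be told apart in 13 mRNAs.

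**Figure D3:**
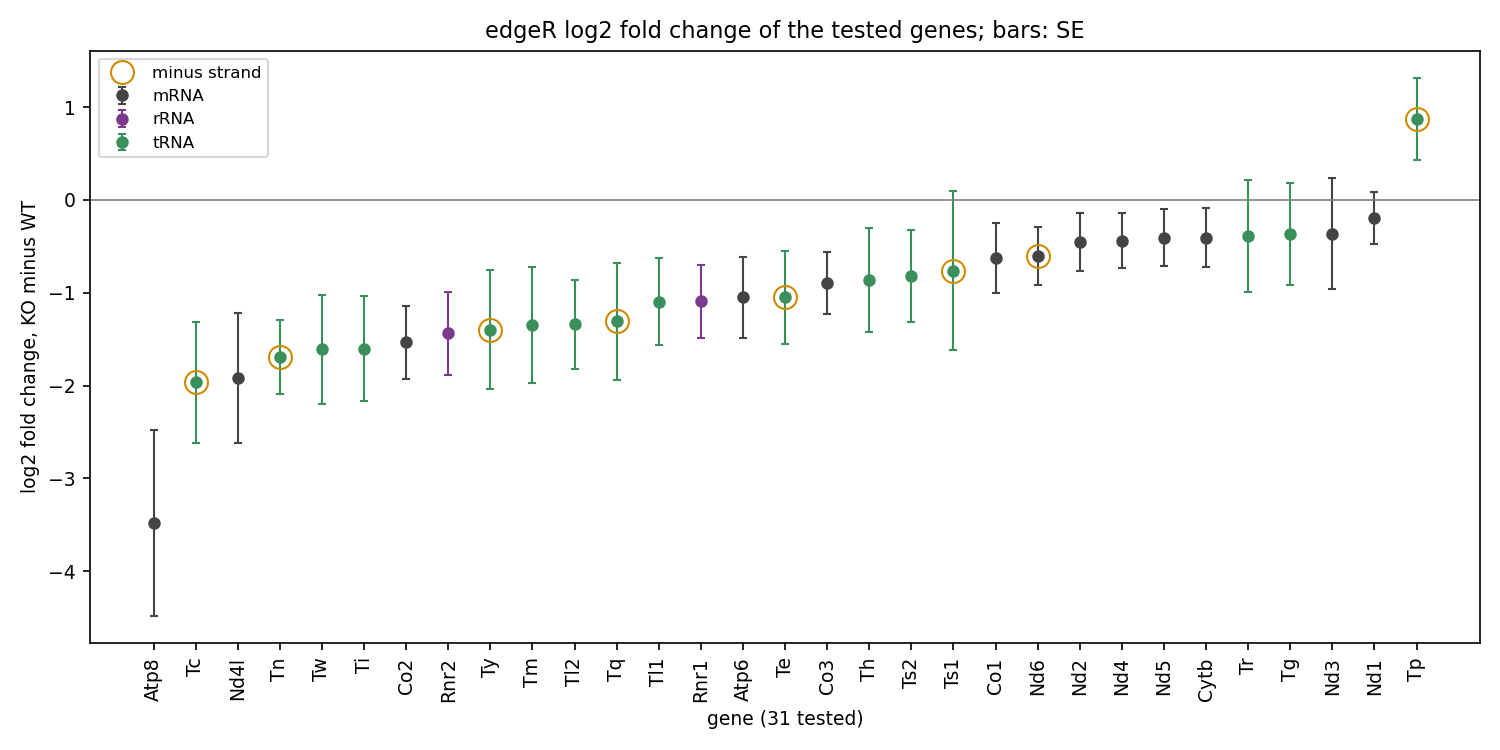
edgeR log2 fold change (KO minus WT) with its standard error for the 31 tested genes, ordered by value and coloured by class; a ring marks the minus strand. All but mt-Tp lie below 0, from -3.48 for mt-Atp8 to -0.20 for mt-Nd1, and genes of the minus strand are spread among the rest.

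The 2 rRNAs of the mitochondrial ribosome were both lower in mean in KO. mt-Rnr2, the 16S rRNA of the large subunit (chrM:1094-2675), was at 9256, 19807 and 19255 CPM in WT against 8314, 6934 and 2589 CPM in KO. Every KO library lay below every WT library, although KO 1 was close to WT 1. The log2 fold change was -1.44 (SE 0.45) with an edgeR adjusted p of 0.350, and DESeq2 gave -1.45 with an adjusted p of 0.0151, past its threshold. Leaving out 1 library at a time kept it between -1.75 and -1.08, and without both WT 2 and KO 3 it was -0.90. mt-Rnr1, the 12S rRNA of the small subunit (chrM:70-1024), was at 6303, 12584 and 10714 CPM in WT against 6658, 4837 and 2385 CPM in KO. Here KO 1 lay above WT 1 (log2 fold change -1.09, SE 0.39, edgeR adjusted p = 0.375), and without both WT 2 and KO 3 the value was -0.56.

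The rRNAs also made up a smaller part of the mitochondrial counts. Together they took 4.74%, 6.27% and 10.0% in WT against 4.43%, 4.58% and 2.73% in KO. All KO values lay below all WT values, with a gap of less than 1 percentage point between KO 2 and WT 1. The means were 7.0% ± 2.70 and 3.91% ± 1.03 (SD, n = 3 each), a difference of -3.09 percentage points (exact permutation p = 0.1, adjusted 0.5). Leaving out 1 library at a time gave -4.22 to -1.59, the latter without WT 3, and leaving out WT 2 and KO 3 gave -2.87. The ratio of mt-Rnr2 to mt-Rnr1 counts, examined after its values were seen, was 1.47, 1.57 and 1.80 in WT against 1.25, 1.43 and 1.09 in KO, also without overlap (exact permutation p = 0.1). The libraries were poly(A)-selected, and the part of that selection in the rRNA values was not tested.

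**Figure D4:**
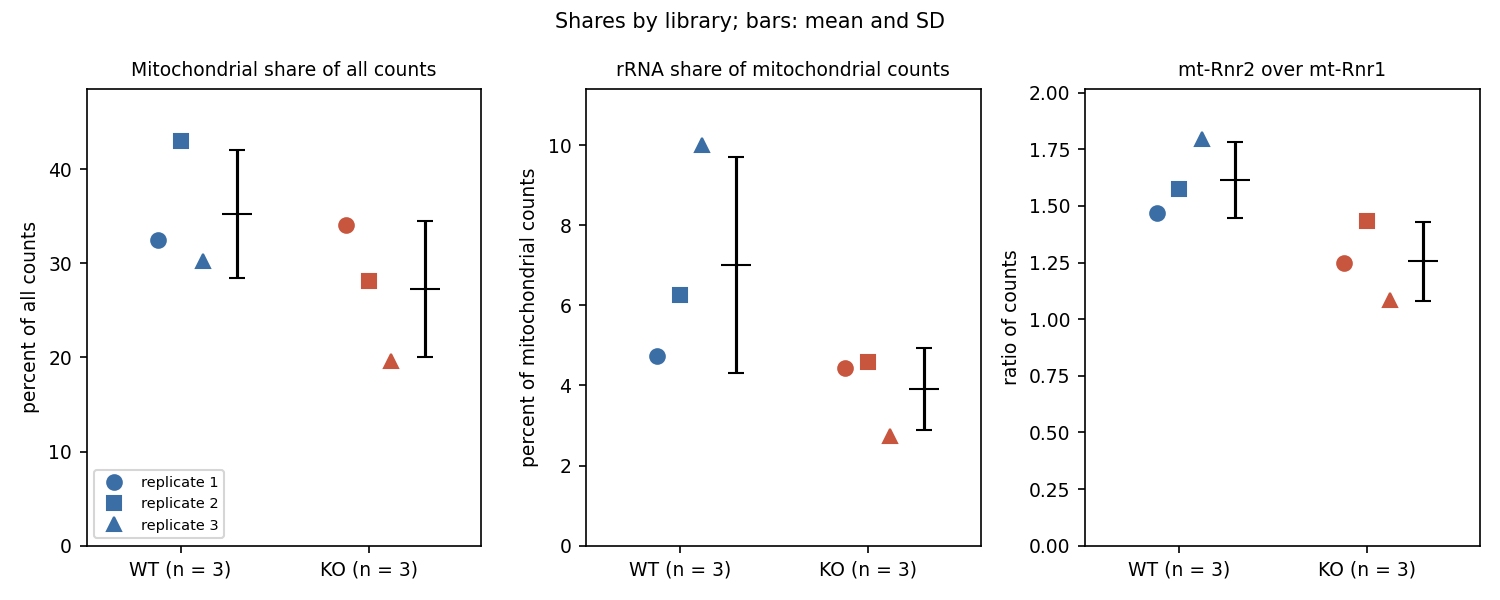
Mitochondrial share of all counts, rRNA share of mitochondrial counts and the ratio of mt-Rnr2 to mt-Rnr1 counts in each library, with mean and SD of each group (n = 3). The groups overlap in the first panel, where WT 2 (43.0%) and KO 3 (19.7%) are the extremes, and do not overlap in the other two.

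Genes of the minus strand, which are transcribed from the light-strand promoter, took a small share of mitochondrial counts. They are mt-Nd6 and 8 tRNAs, 9 of the 37 genes. Their share of mitochondrial counts was 2.04%, 2.29% and 1.93% in WT against 1.92%, 2.07% and 2.39% in KO. The means of 2.09% ± 0.182 and 2.13% ± 0.241 (SD, n = 3 each) differed by 0.037 percentage points (exact permutation p = 0.8, adjusted 1). Nearly all of this share was mt-Nd6, with 2.06% of mitochondrial counts in the mean of the 6 libraries. Among tRNA counts alone, the minus-strand share was higher in KO by 8.70 percentage points (exact permutation p = 0.2). With mt-Tp left out it was lower in KO by a difference of -4.44 percentage points (exact permutation p = 0.8). Among tested genes, 7 of 8 on the minus strand and 23 of 23 on the plus strand had a negative log2 fold change, with medians of -1.18 and -0.90. Strand here is that of the annotation, and the strand setting of the counting is not stated. In all these values, reads of a gene and of RNA from the opposite strand could therefore not be told apart.

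mt-Nd6, a complex I subunit (chrM:13552-14070), is the only mRNA of the minus strand. Its sense strand contains 28.1% G and 5.97% C, whereas the other 12 mRNAs contain between 5.88% and 16.1% G. Its first 60 bases are shown for this run of G and T.
mt-Nd6: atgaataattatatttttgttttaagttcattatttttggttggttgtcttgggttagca
They lie at chrM:14011-14070 on the minus strand of mm10. mt-Nd6 was at 6573, 11636 and 5679 CPM in WT against 6374, 5221 and 4146 CPM in KO, with KO 1 between WT 3 and WT 1 (log2 fold change -0.60, SE 0.31, edgeR adjusted p = 0.463). The value was -0.23 with WT 2 left out and -0.08 with KO 3 left out as well. Against the summed counts of the other 12 mRNAs, its log2 ratio was -5.54, -5.34 and -5.54 in WT, against -5.63, -5.52 and -5.38 in KO. The means of -5.47 ± 0.113 and -5.51 ± 0.127 (SD, n = 3 each) differed by -0.04 (exact permutation p = 0.7, adjusted 1). This difference was smaller than the SD of either group. No source used here gives the strand setting of the counting, so reads of mt-Nd6 and of RNA from the opposite strand could not be told apart.

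The tRNA genes gave few counts, between 2811 and 5222 in a library for all 22 together. They made up 0.0523%, 0.0478% and 0.0513% of mitochondrial counts in WT against 0.0409%, 0.0470% and 0.118% in KO, with KO 3 far above the rest (exact permutation p = 1). Mature tRNAs have no poly(A) tail and are short, so such reads can also come from precursor RNAs, and the 2 could not be separated. Of the 22, 16 passed the filter. The 6 that did not (mt-Tf, mt-Tv, mt-Ta, mt-Td, mt-Tk and mt-Tt) had at most 33 counts over all libraries, and mt-Tf and mt-Td had 0 in every library. Wholly inside the copied stretch lie 5 of the tRNA genes, mt-Ts1, mt-Td, mt-Tk, mt-Tg and mt-Tr. Genes this short were below the 100-base limit of the copy search. The part of reads shared with the nuclear copy in their counts was not tested.

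mt-Tp, the proline tRNA of the minus strand, was the exception in direction. It was at 71.3, 37.6 and 69.5 CPM in WT against 79.7, 51.9 and 196 CPM in KO. KO 3, the lowest library for most mitochondrial genes, was the highest here, and WT 2 was the lowest. The log2 fold change was 0.88 (SE 0.44, edgeR adjusted p = 0.452), became 0.14 without KO 3 and turned to -0.10 without both WT 2 and KO 3. mt-Tp supplied 41.6%, 15.2% and 45.2% of all tRNA counts in WT against 57.7%, 43.0% and 91.5% in KO. Its neighbour mt-Tt, the threonine tRNA on the opposite strand, had 1, 11 and 2 counts in WT against 4, 7 and 1 in KO, while mt-Tp had 1766, 563 and 2361 in WT against 1753, 1210 and 4016 in KO. The genes adjoin without a gap, at chrM:15289-15355 (plus strand) and chrM:15356-15422 (minus strand), and both have 67 bases. They are shown whole, each on its own sense strand, because they differ so widely in counts.
mt-Tt: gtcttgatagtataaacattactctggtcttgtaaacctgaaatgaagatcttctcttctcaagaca
mt-Tp: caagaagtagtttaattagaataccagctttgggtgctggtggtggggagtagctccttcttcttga

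The other tested tRNAs were lower in mean in KO. mt-Tn, for asparagine, was at 12.8, 25.0 and 9.95 CPM in WT against 6.09, 5.79 and 2.74 CPM in KO, without overlap. Its edgeR log2 fold change was -1.70 (SE 0.40, adjusted p = 0.306, the lowest among the mitochondrial genes), and DESeq2 gave an adjusted p of 0.00260, past its threshold. Without WT 2 it was -1.22, and without both WT 2 and KO 3 it was -0.93 (edgeR). mt-Tc, for cysteine, was at 24.5, 88.5 and 23.3 CPM in WT against 13.9, 17.6 and 3.03 CPM in KO, again without overlap (log2 fold change -1.97, SE 0.65, edgeR adjusted p = 0.374), and was at -1.05 without WT 2 and -0.60 without both libraries. mt-Ti, mt-Tl2 and mt-Ts2, for isoleucine, a leucine and a serine, likewise had every KO library below every WT library, with log2 fold changes of -1.60 (SE 0.57), -1.34 (SE 0.48) and -0.82 (SE 0.50). Without both WT 2 and KO 3 they were -1.50, -0.47 and -0.48. In these 5 tRNAs KO 3 was the lowest library.

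Values of the remaining 10 tested tRNAs overlapped between the groups. Their log2 fold changes were -1.61 for mt-Tw, -1.40 for mt-Ty, -1.35 for mt-Tm, -1.31 for mt-Tq, -1.09 for mt-Tl1, -1.05 for mt-Te, -0.86 for mt-Th, -0.76 for mt-Ts1, -0.39 for mt-Tr and -0.37 for mt-Tg. mt-Tw (tryptophan) was at 9.98, 14.7 and 4.91 CPM in WT against 3.41, 5.36 and 0.782 CPM in KO, with KO 2 above WT 3. mt-Te (glutamate) was at 13.3, 33.4 and 9.56 CPM in WT against 9.32, 13.3 and 4.20 CPM in KO. mt-Tl1, the other leucine tRNA, was at 6.02, 14.4 and 7.95 CPM in WT against 7.09, 4.16 and 1.91 CPM in KO. In these 3 genes too WT 2 was the highest and KO 3 the lowest. Without both libraries mt-Tw was at -0.75, mt-Te at -0.0045, mt-Tl1 at -0.31 and mt-Ty at -0.27, and the other 6 lay between -1.54 and -0.10. The other 7 stayed at or below 9.82 CPM in every library.

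**Figure D5:**
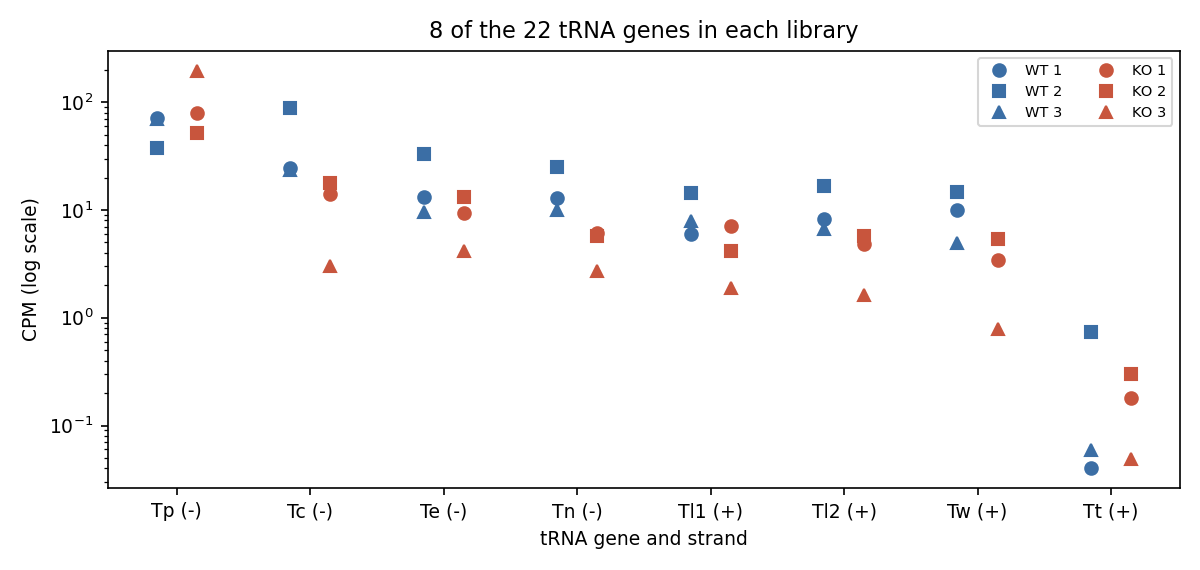
CPM (log axis) of 8 tRNA genes in the 6 libraries, with the strand of each in brackets, WT in blue on the left and KO in red on the right: the 7 with the highest mean level and mt-Tt, the neighbour of mt-Tp. KO 3 is the highest library for mt-Tp and the lowest for the next 6 genes.

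No nuclear partner of the mitochondrial mRNAs passed the test in either direction. Of the nuclear subunits, 37 of complex I had a median log2 fold change of -0.06 and 9 of complex III 0.04. The medians were -0.18 for 13 of complex IV and -0.25 for 16 of complex V. The complex V list, also used for the ratio below, includes the gene of an inhibitor protein that is not a subunit. Complex II, which has no mitochondrial subunit, had a median of 0.02 over 4 genes. In these lists edgeR called 0 genes, against 0.0198% higher and 0.0397% lower of all genes. At an unadjusted p under 0.05 there were 0, against 6.3% and 5.49% of all genes. The log2 ratio of mitochondrial to nuclear subunit counts was lower in KO in all 4 complexes, by mean differences of -0.31 in complex I, -0.43 in complex III, -0.56 in complex IV and -0.99 in complex V. For complex IV it was 3.60, 4.02 and 3.51 in WT against 3.51, 3.32 and 2.62 in KO. The groups did not overlap there, though KO 1 and WT 3 were nearly level (exact permutation p = 0.1, adjusted 0.3 over 4 complexes). In complexes I, III and V the groups overlapped (exact permutation p = 0.3, 0.3 and 0.2). Without both WT 2 and KO 3 the 4 differences were between -0.14 and -0.02.

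A list of 34 genes covers the transcription of mitochondrial DNA and the handling of its RNA. It also holds genes that replicate mitochondrial DNA and regulators of nuclear transcription. Differences in this mixed list were small and in both directions. Of the 34 genes edgeR called 0. At an unadjusted edgeR p under 0.05 there were 3, all higher in KO, where 6.3% of all genes were higher. The median log2 fold change was -0.05. Their summed level was 1491 to 1563 CPM in WT and 1580 to 1624 CPM in KO, without overlap (exact permutation p = 0.1). Genes with high levels weigh most in this sum. By gene, 21 of the 34 log2 fold changes were negative and 13 positive. Polrmt, the mitochondrial RNA polymerase, was at 25.0, 17.1 and 28.8 CPM in WT against 31.3, 31.1 and 49.8 CPM in KO. All KO libraries lay above all WT libraries, with WT 2 the lowest and KO 3 the highest. The log2 fold change was 0.66 (SE 0.25) with an edgeR adjusted p of 0.390. Tfam packages mitochondrial DNA and opens its promoters. It was at 47.4, 53.9 and 48.7 CPM in WT against 44.4, 44.2 and 37.3 CPM in KO. The groups did not overlap, in the other direction, with WT 2 the highest and KO 3 the lowest (log2 fold change -0.25, SE 0.15, edgeR adjusted p = 0.510). Lrpprc and Slirp are partners that stabilize mitochondrial mRNAs. The log2 fold change was 0.38 (SE 0.26) for Lrpprc and -0.55 (SE 0.89) for Slirp, which had at most 52 counts in a library.

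Markers of other cell types were summed per library. Of the 17 skeletal muscle markers, 13 were tested. All 17 summed to 25.7, 29.7 and 70.1 CPM in WT against 14.2, 64.4 and 15.2 CPM in KO, and the groups overlapped. The 12 lymphocyte markers, 7 of them tested, summed to 7.12 to 11.4 CPM in WT against 14.7 to 20.9 CPM in KO, without overlap. The 8 endothelial markers summed to 359 to 580 CPM in WT against 463 to 842 CPM in KO, lowest in WT 2 and highest in KO 3. Sums of the 10 macrophage, 8 fibroblast and 6 erythrocyte markers overlapped between the groups. No listed marker was at 0 in all libraries. Ucp1 was at 2297 ± 614 CPM in WT against 4782 ± 1115 CPM in KO (SD, n = 3 each), lowest in WT 2 and highest in KO 3, and the log2 fold change was 1.06 (SE 0.28) with an edgeR adjusted p of 0.310. The part of cell makeup in the mitochondrial values was not tested.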

How the data were processed

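RNA was sequenced from brown adipose tissue of 3 WT and 3 KO mice, listed as separate individuals; KO 4 was not analysed here. The authors deposited whole-number read counts for each gene, without normalization. They name build mm10, the aligner HISAT2 2.1.0, the counter featureCounts 1.6.2 and DESeq2, per the submitters' processing notes. Annotation release, strand setting and treatment of multi-mapped reads are not stated in any source used here. Of 53715 gene identifiers, 53620 matched a symbol without regard to version. Positions and transcript sequences came from GENCODE M 21, on the same build.

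KO was compared with WT by edgeR's quasi-likelihood test (edgeR 4.0.16, limma 3.58.1, DESeq2 1.42.0, R 4.3.3) on all genes kept by filterByExpr (minimum count 10, minimum total 15), with TMM factors, genotype as the only term and a Benjamini-Hochberg adjusted p of 0.05. A negative log2 fold change means lower in KO. The fit was tested on simulated data. CPM use TMM-scaled library sizes, and CPM per kb divide by gene length. Shares within a library were compared by exact two-sided permutation. Nuclear copies were transcripts elsewhere that matched a mitochondrial transcript by BLAST 2.17.0 at 90% identity or more over at least 100 bases.

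All mitochondrial mRNAs, rRNAs and tested tRNAs were named. Nuclear genes named were Pgam5, Ucp1, Polrmt, Tfam, Lrpprc, Slirp and the 4 copies with most counts; the other copies were named after their values were seen. The members, the lists and the pair of libraries left out together were chosen with earlier results of these data known. Alternatives covered scaling, filter, tool, dispersion, replicate block and samples. Adding the copies' counts was chosen after seeing the data.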

Additional observations from a re-analysis of the deposited data

How the results depend on the processing

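No mitochondrial gene was called by edgeR with DESeq2 size factors, scaling on nuclear genes only, a robust fit, a stricter filter, the copies' counts added or any library left out, nor by limma-voom with or without quality weights. DESeq2 called 3. Without a count filter edgeR called 14, 13 lower and mt-Tp higher; the median residual degrees of freedom after pooling then rose from 9.61 to 111496, and the SE of mt-Atp8 fell from 1.0 to 0.23. Over all genes, the 3 higher and 6 lower calls became 85 and 82 with DESeq2, 330 and 333 without a filter, 10 and 11 with quality weights, and 14 and 13 without both WT 2 and KO 3. Leaving out 1 library gave 0 to 9 higher and 0 to 9 lower calls, with 0 in both directions without KO 2. Replicate numbers are shared by the groups, but same-numbered libraries deviated together only weakly or not at all (correlations -0.11, 0.10 and 0.09), so the numbers were not taken as pairs. With the replicate block there were 1 higher, 4 lower and 0 mitochondrial calls.

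Of the 31 tested genes, 23 kept their sign under every alternative that gave a value. The stricter filter tested 25 of the 31. DESeq2 gave mt-Atp8 a log2 fold change of -3.50 but no p, and that value was not counted. This left 520 values under 17 alternatives. Leaving out 1 library gave -2.10 to 0.29 for mt-Ts1 and -0.97 to 0.43 for mt-Nd3, each positive without WT 1 only. It gave -0.73 to 0.087 for mt-Tg, positive without WT 3 and at 0.0059 without KO 3, and -0.79 to 0.037 for mt-Tr, positive without KO 3 only. Without both WT 2 and KO 3, mt-Nd1 (0.11), mt-Nd5 (0.027), mt-Cytb (0.031) and mt-Tp (-0.10) changed sign. The median of the 13 mRNAs, -0.60, ran from -0.94 without KO 1 to -0.25 without WT 2, and was -0.35 with quality weights and -0.08 without both libraries. Some shares changed sign. Leaving out 1 library gave -0.0065 to 0.0319 percentage points for the tRNA share, -0.0952 to 0.141 for the minus-strand share, and on the log2 scale -0.10 to 0.026 for the mt-Nd6 ratio, -0.013 to 0.079 for the mt-Nd2 share, -0.19 to 1.05 for mt-Nd3, -1.13 to 0.037 for mt-Nd4l and -0.10 to 0.026 for mt-Nd6. Without both libraries the tRNA share differed by -0.0079 percentage points, and the log2 shares of mt-Nd2 and mt-Nd4 by -0.0042 and -0.0044. Causes of these changes were not tested. Depth limits only the tRNAs. For mt-Tf and mt-Td, at 0, counting error alone allows up to 0.0883 to 0.200 CPM. mt-Td lies in the copied stretch, and loss of reads shared with the nuclear copy was not tested.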
